A study of Mus musculus with 12 samples.

Results

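Microglia are the resident macrophages of the retina and brain. In healthy tissue they carry a set of transcripts that is often called homeostatic, among them receptors with which they sense nucleotides, lipids and neuronal chemokine. In a healthy eye they sit in the inner layers of the neural retina, and the subretinal space next to the retinal pigment epithelium (RPE) holds few of them. Many of the homeostatic transcripts fall when microglia become activated, and several are absent or low in other macrophages. The 10 genes described here are members of that set chosen by name (*P2ry12*, *P2ry13*, *Tmem119*, *Cx3cr1*, *Csf1r*, *Aif1*, *Gpr34*, *Fcrls*, *Siglech* and *Sall1*), out of 28591 genes in the table, and all 10 were among the 17768 genes tested.

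In the RPE of rd6 mice 9 of the 10 genes were higher than in WT, by 2.63-fold for *Sall1* to 25.4-fold for *P2ry13*, and none was lower, where 4.69% of all genes tested were called higher and 2.12% lower (limma adjusted p-value under 0.05, change of 1.75-fold or more). The purinergic receptors *P2ry12* and *P2ry13* rose most and the transcription factor *Sall1* least. The tenth gene, *Csf1r*, the receptor for the macrophage growth factors CSF1 and IL-34, was abundant in both genotypes and was not called. Set against *Ptprc* (CD45), a general leukocyte gene, 6 of the genes rose by more (0.602% of all genes tested did) and 1, *Csf1r*, was called lower (88.8%). Set against *Laptm5*, a lysosomal membrane gene of blood-derived cells that rose strongly itself, only *P2ry12* and *P2ry13* rose by more (0.135%), and *Tmem119*, *Sall1* and *Csf1r* were called lower (98.2%).

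The samples were 6 WT (C57BL/6J) and 6 rd6 (*Mfrp* rd6/rd6) mice of 1 mo, and both genotypes were otherwise untreated. The rd6 allele is carried in the germ line, so every cell of these mice holds it, and the study obtained the strain as *Mfrp* rd6/J. Males and females were both used unless otherwise noted, according to the methods. RPE from both eyes was combined for each library after the anterior segment and neural retina were taken off the eyecup, and stranded total RNA was sequenced as read pairs. Levels are given as normalized counts, which are reads on a gene divided by the size factor of the library. The labels number the samples as replicates, so p-values measure the spread between these samples.

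The libraries held 28907262 to 33152725 reads on genes, and 3 reads, used here as a floor, were worth 2.71 to 3.32 normalized counts. This floor covers counting error only, since PCR copies of a molecule are counted as reads. *Mfrp*, the gene mutated in rd6 mice, was at 30132 to 45442 normalized counts in WT and 20442 to 29732 in rd6, without overlap. This change was below the fold limit for a call (log2 fold change -0.63, limma q = 0.00126). The RPE markers *Rpe65*, *Lrat*, *Rlbp1*, *Rgr* and *Ttr* were among the abundant transcripts of every library, whereas *Best1* had only 9.33 to 48.7 normalized counts. WT replicate 4 stood apart from the other WT libraries in 10.8% of the genes tested and rd6 replicate 5 from the other rd6 libraries in 5.54%, against at most 1.76% for any other library. With both left out, the same 9 members were called.

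To show the start regions of members that rose by different amounts, the 250 bases before the RefSeq start (GRCm38.p6) are printed 5′ to 3′ on the strand of the gene for *P2ry12* (chr3:59262986-59263235), *P2ry13* (chr3:59210883-59211132), *Fcrls* (chr3:87263525-87263774) and *Cx3cr1* (chr9:120068297-120068546), all on the minus strand. Capitals mark a match, on either strand, to GAGGAA or GGAAGT, a pair of cores bound by the myeloid factor PU.1, which can overlap each other.
P2ry12: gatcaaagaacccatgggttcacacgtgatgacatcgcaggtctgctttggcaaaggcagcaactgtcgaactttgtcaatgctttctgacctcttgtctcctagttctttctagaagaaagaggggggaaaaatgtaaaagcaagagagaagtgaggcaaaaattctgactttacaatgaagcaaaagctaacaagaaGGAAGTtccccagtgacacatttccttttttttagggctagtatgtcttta
P2ry13: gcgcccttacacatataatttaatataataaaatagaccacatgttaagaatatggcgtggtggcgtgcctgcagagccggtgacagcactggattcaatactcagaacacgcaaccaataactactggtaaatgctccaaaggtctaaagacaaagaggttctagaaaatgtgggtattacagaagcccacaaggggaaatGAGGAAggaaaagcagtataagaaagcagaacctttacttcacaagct
Fcrls: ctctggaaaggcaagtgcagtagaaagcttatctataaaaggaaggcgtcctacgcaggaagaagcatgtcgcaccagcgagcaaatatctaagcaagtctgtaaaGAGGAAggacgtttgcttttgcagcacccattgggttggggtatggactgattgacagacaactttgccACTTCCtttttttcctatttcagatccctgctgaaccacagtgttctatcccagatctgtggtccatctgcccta
Cx3cr1: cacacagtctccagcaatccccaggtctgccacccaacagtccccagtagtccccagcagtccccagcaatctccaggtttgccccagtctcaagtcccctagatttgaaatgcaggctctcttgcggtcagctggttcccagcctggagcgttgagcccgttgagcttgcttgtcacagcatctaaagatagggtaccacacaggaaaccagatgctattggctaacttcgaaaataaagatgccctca

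The *P2ry12* match was GGAAGT at 51 to 46 bases before the start, and the *P2ry13* match was GAGGAA at 48 to 43 bases before it. *Fcrls* held GAGGAA at 144 to 139 bases and, on the opposite strand, GGAAGT at 75 to 70 bases before the start. The *Cx3cr1* window, which lies inside the longer gene span of GENCODE, held neither set of letters. Start windows from RefSeq were searched for 7 of the 10 genes (9 windows, 3 of them for *Sall1*), and 6 of these 9 windows, each of a different gene, held a core. No window was searched for *Csf1r*, *Tmem119* and *Gpr34*, so the counts do not cover them. Over all 32851 windows, 36.7% held either core, GAGGAA 23.3% and GGAAGT 19.7%. A joint PU.1 and IRF element (GGAANNGAA, in 6.99% of all windows) and a MEF2 core (TAAAAATA, in 2.45%) were found in no member window on either strand. These are matches of letters and were not tested for binding.

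The comparison of rd6 with WT asked which genes of the RPE sample change when MFRP is lost. A gene was called at a limma adjusted p-value (q, Benjamini-Hochberg over all genes tested) below 0.05, provided that it changed 1.75-fold or more. Of all genes tested 4.69% were called higher and 2.12% lower, and the median log2 fold change was 0.0049. Of the 10 members 9 were called higher and 0 lower, with a median log2 fold change of 2.78. For 8 members no rd6 library reached down into the WT range, with all rd6 values the higher ones, which held for 5.77% of all genes tested. In tissue RNA, a change in the number of cells that carry a transcript cannot be told apart from a change in the RNA of each cell.

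**Figure D1:**
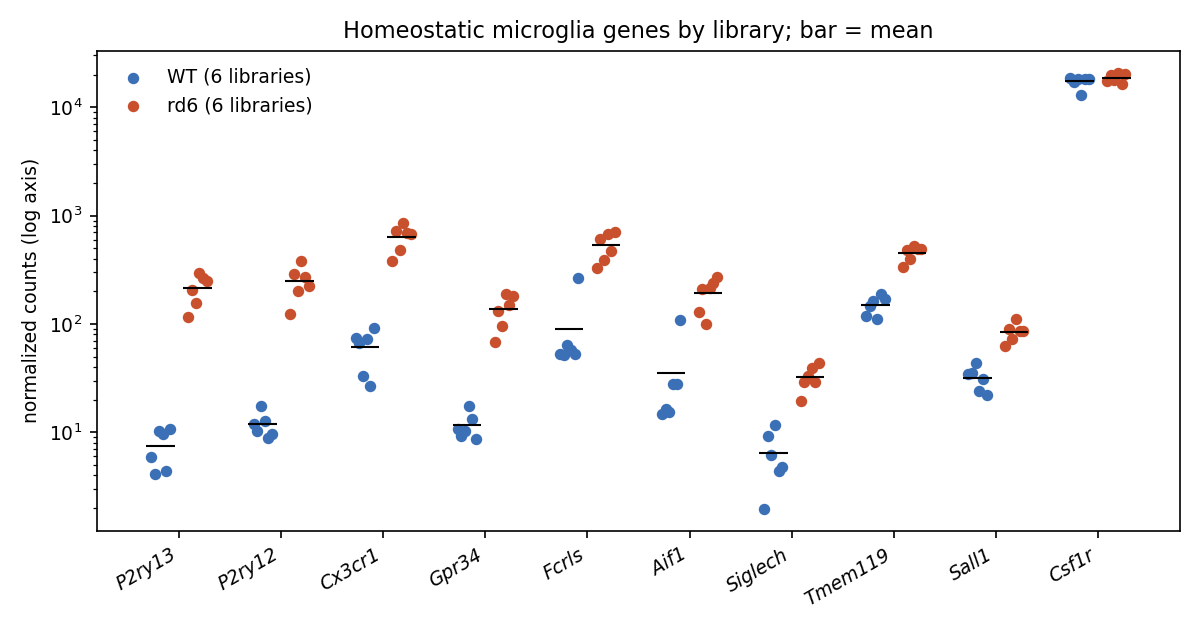
Normalized counts (log axis) of the 10 genes in each of the 6 WT (blue) and 6 rd6 (orange) libraries, with a bar at the mean of each genotype; genes are ordered by fold change. The rd6 points lie clear of the WT points in 8 genes, 1 WT library reaches the rd6 range for *Aif1*, and *Csf1r* overlaps near the top of the plot.

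The receptors for nucleotides are described first. *P2ry12* (ENSMUSG00000036353, chr3:59216272-59262871, minus strand, GRCm38) encodes the ADP receptor by which microglial processes move toward damaged cells. It was at 8.86 normalized counts in the lowest WT library, 11.1 at the median and 17.6 in the highest, and at 123, 246 and 378 in the lowest, median and highest rd6 library. The lowest rd6 library, replicate 1, thus lay far above the highest WT library. The rise was 18.7-fold (95% confidence interval 12.9 to 27.2, log2 4.23 ± 0.25 SE, limma q = 1.74e-07).

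*P2ry13* (ENSMUSG00000036362, chr3:59207892-59210882, minus strand), a second ADP receptor that adjoins *P2ry12*, had 4.13, 7.81 and 10.6 normalized counts in the lowest, median and highest WT library. In rd6 these were 116, 226 and 294. All WT libraries were close to the floor, with 4 to 11 reads, and all rd6 libraries were clear of it, with 120 to 308 reads. The rise was 25.4-fold (95% confidence interval 16.5 to 39.2, log2 4.67 ± 0.29 SE, limma q = 2.45e-07), and with the pseudocount of 1 this understates a change from so low a level.

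Both genes lie within *Med12l*, a mediator subunit gene on the opposite strand. The exons of *P2ry12* share 9 bases with those of *Med12l* and the exons of *P2ry13* share none. *Med12l* ranged from 502 to 676 normalized counts in WT and from 482 to 604 in rd6 (log2 fold change -0.09, limma q = 0.491). Of the neighboring receptor genes, *P2ry14*, a receptor for UDP-sugars, had 18.7 to 53.2 normalized counts in WT and 8.59 to 29.1 in rd6 (log2 fold change -0.71, q = 0.127). *P2ry1*, another ADP receptor, had 14.4 to 137 in WT and 9.94 to 69.8 in rd6 (log2 fold change -0.45, q = 0.598). *Gpr171* did not exceed 4.51 normalized counts in any library. Of the genes of this cluster given here, the 2 members were thus the ones called.

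*Gpr34* (ENSMUSG00000040229, chrX:13632089-13640858, plus strand) encodes a receptor for lysophosphatidylserine. WT libraries ran from 8.70 through a median of 10.6 to 17.5 normalized counts, and rd6 libraries from 67.8 through 141 to 189. The groups did not overlap, and the change was 10.5-fold (95% confidence interval 7.06 to 15.5, log2 3.39 ± 0.26 SE, limma q = 1.74e-06). *Gpr34* lies inside *Cask*, on the other strand and with no shared exon bases, and *Cask* was at 849 to 1110 normalized counts in WT and 837 to 929 in rd6 (log2 fold change -0.14, q = 0.135).

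*Cx3cr1* (ENSMUSG00000052336, chr9:119901616-120069879, minus strand) encodes the receptor of fractalkine, the chemokine that neurons hold on their surface. Its lowest, median and highest WT values were 26.6, 70.0 and 90.9 normalized counts, and its rd6 values were 382, 680 and 855. WT replicates 3 and 5 were the low ones, at 33.2 and 26.6, and all rd6 libraries were above all WT libraries. The gene rose 10.8-fold (95% confidence interval 6.88 to 17.1, log2 3.44 ± 0.30 SE, limma q = 5.12e-06). Its annotated span overlaps 9 other genes, but they share only 78 bases of its exons.

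*Csf1r* (ENSMUSG00000024621, chr18:61100598-61132149, plus strand) was the one gene of the set that was not called. Its WT libraries ran from 12921 through a median of 18200 to 18698 normalized counts and its rd6 libraries from 16200 through 18867 to 20851. The groups overlapped, and WT replicate 4 was the low one, as the other 5 WT libraries were at 17186 or more. The log2 fold change was 0.12 ± 0.10 SE (95% confidence interval -0.08 to 0.33, limma q = 0.385), that is, between 0.944-fold and 1.26-fold. The exons of *Csf1r* share 873 bases with those of *Hmgxb3* on the opposite strand. Counting with the standard parameters of Rsubread does not use the strand, so reads of the 2 genes cannot be told apart there. *Hmgxb3* itself had 1134 to 1520 normalized counts in WT and 1138 to 1332 in rd6, over longer exons.

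Per kilobase of exon, the level of *Csf1r* in WT was 2989 ± 378 normalized counts (SD, n = 6), which was 46.2 times that of *Tmem119*, the next of the set, and 1119 times that of *Ptprc*. In rd6 it was 3246 ± 314, or 14.3 times the level of *Fcrls* and 447 times that of *Ptprc*. In both genotypes *Csf1r* was thus far more abundant than every other gene of the set. Which cells of the sample carry it was not tested.

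The surface proteins *Fcrls* and *Siglech*, an Fc receptor-like scavenger molecule and a sialic acid-binding lectin, also rose. *Fcrls* (ENSMUSG00000015852, chr3:87250758-87263738, minus strand) was at 51.6, 55.2 and 263 normalized counts in the lowest, median and highest WT library and at 327, 543 and 707 in rd6. WT replicate 6 stood alone at 263, as the other 5 WT libraries lay between 51.6 and 64.3, but even this library was below all rd6 libraries. The change was 6.995-fold (95% confidence interval 4.00 to 12.2, log2 2.81 ± 0.37 SE, limma q = 0.000165).

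*Siglech* (ENSMUSG00000051504, chr7:55768178-55778925, plus strand) was the weakest signal of the set. WT libraries had 1.97 to 11.7 normalized counts with a median of 5.53, from 2 to 12 reads, and rd6 libraries had 19.4 to 43.7 with a median of 30.9, from 20 to 44 reads. The groups did not overlap, although WT replicate 1, with 2 reads, was under the floor. The fitted rise was 4.82-fold (95% confidence interval 2.89 to 8.02, log2 2.27 ± 0.34 SE, limma q = 0.000424).

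*Tmem119* (ENSMUSG00000054675, chr5:113793729-113800516, minus strand) encodes a membrane protein used to tell microglia from other macrophages. It had 112, 155 and 190 normalized counts in the lowest, median and highest WT library and 332, 487 and 529 in rd6. The spread within each genotype was small and the groups stayed apart. The rise of 3.04-fold (95% confidence interval 2.42 to 3.82, log2 1.60 ± 0.15 SE, limma q = 9.62e-06) was among the smaller ones of the set.

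*Aif1* (ENSMUSG00000024397, chr17:35170991-35176068, minus strand) encodes IBA1, the calcium-binding protein stained to show microglia and macrophages. Its WT libraries were at 14.8, 22.1 and 108 normalized counts as lowest, median and highest, and its rd6 libraries at 99.6, 211 and 273. As for *Fcrls*, WT replicate 6 was the high one, and it exceeded rd6 replicate 3, so that 5 of 6 rd6 libraries lay above all WT libraries. The change was 6.73-fold (95% confidence interval 3.48 to 13.002, log2 2.75 ± 0.44 SE, limma q = 0.000663), with the widest error of the set.

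*Sall1* (ENSMUSG00000031665, chr8:89027235-89044162, minus strand), a zinc-finger repressor that keeps microglial identity, ran from 22.2 through 32.8 to 43.6 normalized counts in WT and from 62.0 through 85.6 to 112 in rd6. It is also expressed in other tissues, and in WT its mean level per kilobase of exon was above that of *P2ry12* and *P2ry13*. The groups did not overlap, and the rise was 2.63-fold (95% confidence interval 1.98 to 3.50, log2 1.40 ± 0.19 SE, limma q = 0.000198).

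The order of the levels per kilobase of exon differed between the genotypes. In WT it ran from *Csf1r* through *Tmem119* (64.7 ± 13.4, SD, n = 6), *Fcrls* (38.7 ± 36.3), *Aif1* (23.0 ± 23.7), *Cx3cr1* (13.5 ± 5.61), *Sall1* (6.04 ± 1.48), *Gpr34* (5.58 ± 1.56), *P2ry12* (4.64 ± 1.24) and *P2ry13* (2.98 ± 1.20) to *Siglech* (1.89 ± 1.04). Only *Csf1r* and *Tmem119* did not overlap as neighbors in this order. The WT means of *Fcrls* and *Aif1* include WT replicate 6, at 4.95 and 6.56 times the median of the other WT libraries, so their places depend on it. In rd6 it ran from *Csf1r* through *Fcrls* (227 ± 66.9), *Tmem119* (196 ± 31.8), *Cx3cr1* (141 ± 38.3), *Aif1* (127 ± 43.2), *P2ry12* (97.1 ± 33.9), *P2ry13* (84.6 ± 26.8), *Gpr34* (65.1 ± 22.8) and *Sall1* (16.1 ± 3.23) to *Siglech* (9.50 ± 2.54). Here *Csf1r* and *Fcrls*, and *Gpr34* and *Sall1*, were the neighbors that did not overlap, and the mean of *Sall1* had passed from above those of the 3 nucleotide and lipid receptors to below them.

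Within the rd6 group the members varied together from library to library. Of the 9 called members 8 were lowest in rd6 replicate 1 and 1, *Aif1*, in replicate 3, while 6 were highest in replicate 4 and 3 in replicate 6. The mean log2 deviation of these 9 from the rd6 mean was -0.66 in replicate 1 and 0.43 in replicate 4. *Ptprc* and *Laptm5* were lowest in rd6 replicate 1 and highest in replicate 4 as well, at 96.9 and 169 normalized counts for *Ptprc* and at 1064 and 2408 for *Laptm5*. In WT no library was high throughout: 4 members (*Aif1*, *Fcrls*, *Cx3cr1* and *P2ry13*) were highest in replicate 6, and the other 6 were not. WT replicate 6 was singled out after its values were seen. It was also the highest WT library for 8 of 12 general macrophage and leukocyte genes, with *Adgre1* (F4/80) at 321 normalized counts against 42.3 to 99.1 in the other 5. Without it the log2 fold changes of *Aif1* and *Fcrls* were 3.15 and 3.18, and the same 9 genes were called.

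**Figure D2:**
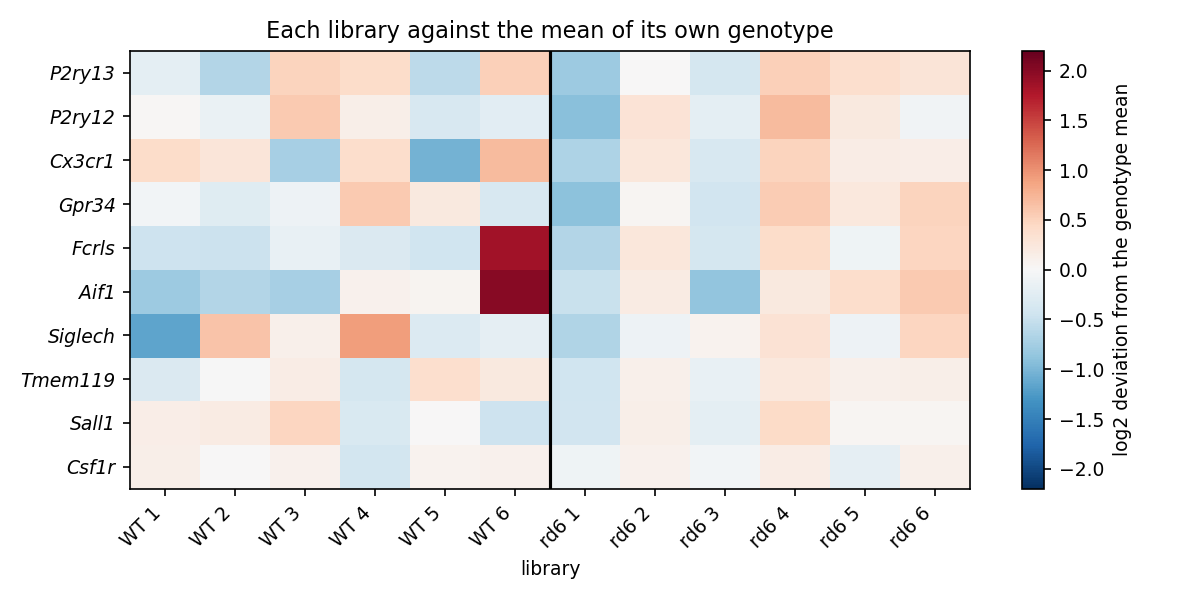
Deviation of each library (columns) from the mean of its genotype on the log2 scale for the 10 genes (rows, ordered by fold change), blue for below and red for above. The column of rd6 replicate 1 is blue throughout, and WT replicate 6 is deep red only for *Fcrls* and *Aif1*.

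The 5 genes outside the set whose log2 deviations from the genotype means were most like the mean deviation of the members over the 12 libraries were *Dock2* (Pearson r = 0.97), *Ctss* (0.93), *C1qa* (0.92), *Rnps1-ps* (0.92) and *Cd53* (0.92). These values describe the likeness between libraries that share depth and dissection, and no test was made of them. *Ctss* (cathepsin S) and *C1qa* (a C1q chain) rose 14.3-fold and 17.6-fold, *Cd53* 6.61-fold and *Dock2* 2.82-fold. The pseudogene *Rnps1-ps* was at 537 ± 15.3 and 552 ± 36.9 normalized counts (SD, n = 6) in WT and rd6, so that its likeness lies in deviations of small size.

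The log2 level of every gene was also set against that of a reference gene in the same library, first *Csf1r* and then the leukocyte genes *Ptprc* and *Laptm5*. A ratio of this kind shows unequal change only. Against *Csf1r*, which was not called, all 9 other members were called higher, as were 3.3% of the genes tested, with log2 differences from 1.27 (*Sall1*) to 4.54 (*P2ry13*). Because *Csf1r* differed so little, these values restate the changes in level and do not measure the leukocyte content.

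Against *Ptprc*, which rose by 1.46 on the log2 scale (limma q = 0.000239), 6 members were called higher where 0.602% of all genes tested were and 88.8% were called lower. These were *P2ry13* (log2 difference 3.20 ± 0.32 SE), *P2ry12* (2.76 ± 0.30), *Cx3cr1* (1.97 ± 0.25), *Gpr34* (1.92 ± 0.35), *Fcrls* (1.34 ± 0.29) and *Aif1* (1.29 ± 0.39), with limma q between 4.22e-07 and 0.00484. *Tmem119* (0.14, 95% confidence interval -0.39 to 0.67), *Sall1* (-0.07, -0.70 to 0.57) and *Siglech* (0.80, -0.10 to 1.71) were not called, and the intervals leave room for a change either way. *Csf1r* was called lower, by a log2 difference of -1.34.

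Against *Laptm5*, which rose 8.19-fold (limma q = 3.37e-06), 0.135% of all genes tested were called higher and 98.2% lower. *P2ry13* (log2 difference 1.63 ± 0.37 SE, limma q = 0.000145) and *P2ry12* (1.19 ± 0.38, q = 0.00376) were among the 24 genes called higher. *Cx3cr1* (0.40), *Gpr34* (0.35), *Fcrls* (-0.23), *Aif1* (-0.28) and *Siglech* (-0.77) were not called either way. *Tmem119* (-1.43), *Sall1* (-1.64) and *Csf1r* (-2.91) were called lower. The purinergic receptors thus rose by more than *Laptm5* and the pair *Tmem119* and *Sall1* by less, while both kinds rose in level.

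**Figure D3:**
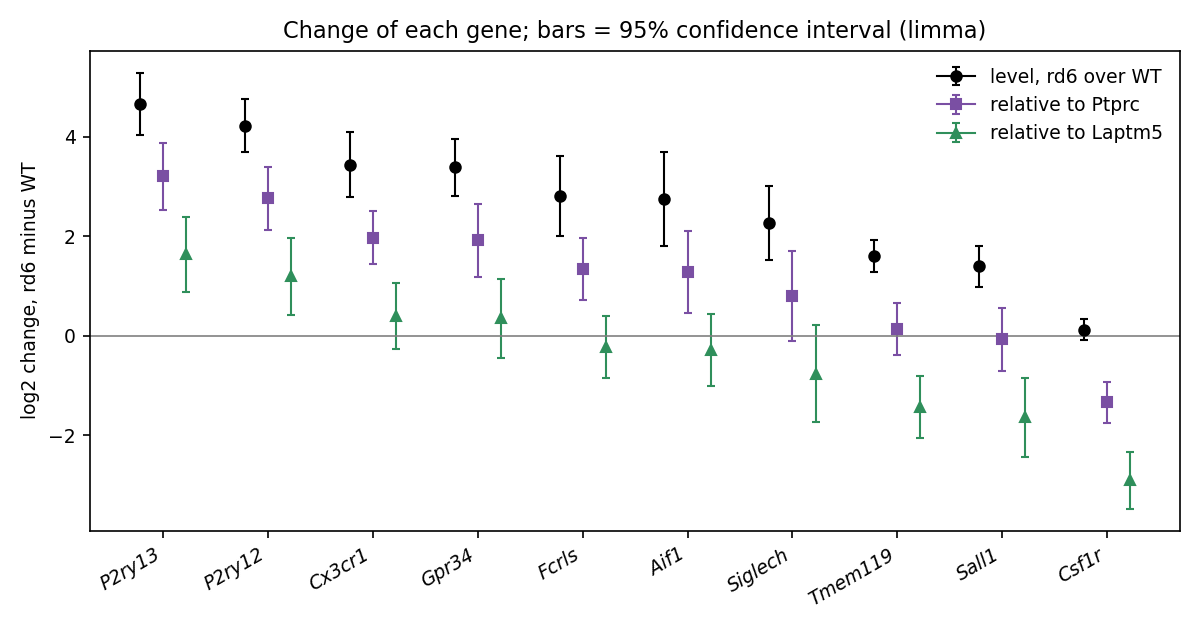
Log2 change from WT to rd6 of each gene, as a level (black circles), relative to *Ptprc* (purple squares) and relative to *Laptm5* (green triangles), with 95% confidence intervals from limma over 6 libraries per genotype. *P2ry13* and *P2ry12* stay above 0 on all 3 scales, and *Tmem119* and *Sall1* lie near 0 relative to *Ptprc* and below 0 relative to *Laptm5*.

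Of the partners of the member receptors (8 genes tested), 1 was called higher and 1 lower by limma. The higher count was 2 by edgeR and DESeq2, 2 without WT replicate 3, 4, 5 or 6 or rd6 replicate 3 or 5, and 3 without rd6 replicate 4. *Csf1*, a ligand of *Csf1r*, rose 2.16-fold from 250 to 342 normalized counts in WT to 522 to 729 in rd6 (limma q = 1.54e-05), without overlap. *Il34*, the other ligand, had 52.3 to 114 in WT and 31.5 to 98.6 in rd6 (log2 fold change -0.22, q = 0.593). *Cx3cl1*, the fractalkine ligand of *Cx3cr1*, had 451 to 740 in WT and 728 to 1167 in rd6, a log2 fold change of 0.79 (q = 0.00215) that stayed under the fold limit. *Nt5e* (CD73), which turns AMP into adenosine in the breakdown of extracellular nucleotides, fell by 1.36 on the log2 scale (q = 0.000381).

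Among adaptors and enzymes that act below *Csf1r* and related receptors, 6 of 9 genes tested were called higher and 0 lower (median log2 fold change 1.67). *Tyrobp* (DAP12), the signaling chain of TREM2, was at 99.6 to 253 normalized counts in WT and 1127 to 2791 in rd6 (log2 3.94, limma q = 6.26e-07). *Vav1* (log2 2.74), *Fcer1g* (2.66) and *Pik3cg* (2.45) followed. The other P2Y and P2X receptors gave 3 of 10 called higher and 0 lower, which were the ATP-gated channels *P2rx7* (log2 1.28), *P2rx4* (1.19) and *P2rx5* (1.17). *P2rx5* was near the threshold (limma q = 0.0431) and was not called with the replicate number as a block (q = 0.118), and the count was 2 without WT replicate 1, 2 or 3 or rd6 replicate 1, 2, 3 or 6 and 4 without rd6 replicate 5.

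Further genes of the microglial set gave 8 of 14 called higher and 0 lower (median log2 fold change 1.01). *Cd33* (log2 2.76), a sialic acid-binding receptor, and *Selplg* (2.44), a ligand of selectins, rose most. The fructose carrier *Slc2a5* did not exceed 4.12 normalized counts in any library and was not tested. Of the myeloid transcription factors 7 of 13 were called higher and 0 lower (median 1.07). *Ikzf1* (log2 2.69), *Sall3* (2.65), *Irf8* (1.98) and *Spi1* (1.37), which encodes PU.1, were among them. The TGF-beta axis, which sustains the homeostatic set, had 2 of 14 called higher (*Tgfb2*, log2 1.19, and *Tgfb1*, 0.83) and 0 lower, with a median of 0.11. *Tgfb2* was not called with the replicate number as a block (q = 0.0587), which left 1 of 14. The count was also 1 without WT replicate 2 or rd6 replicate 2, and 3 by edgeR, DESeq2 and TMM rescaling and without WT replicate 1, 3 or 6 or rd6 replicate 3 or 5.

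The general macrophage and leukocyte genes gave 11 of 12 called higher and 0 lower (median log2 fold change 1.82), led by *Laptm5* (3.03), *Cd53* (2.72), *Cd68* (2.67) and *Itgb2* (2.65). The disease-associated microglia genes gave 9 of 13 called higher and 0 lower (median 1.23). *Cst7*, an inhibitor of cathepsins, was at 1.03 to 7.73 normalized counts in WT and 296 to 1284 in rd6 (log2 7.64, limma q = 7.58e-08), *Trem2* rose by 4.37 and *Clec7a* by 3.35 on the log2 scale. Genes of both the homeostatic and the disease-associated list were thus called higher in rd6.

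Markers of other cells that the sample could hold were counted beside these values. Border macrophage markers had 2 of 10 tested called higher (*Ms4a7*, log2 1.47, and *F13a1*, 0.83) and 0 lower, with a summed level of 753 to 3555 normalized counts in WT and 961 to 7081 in rd6. The median log2 fold change of the 10 genes was 0.54, from -0.42 to 1.53, and the gene at 1.53 was not called. *Mrc1* (log2 -0.14), *Cd163* (0.26) and *Lyve1* (0.41), which define border macrophages, were not called either. Monocyte markers had 0 of 5 called higher by limma (1 by edgeR and 2 by DESeq2) and 1 lower, with a median log2 fold change of 1.16. Their sums were 698 to 2036 in WT and 665 to 1680 in rd6. *Ly6c2* (log2 1.20, limma q = 0.0552) and *Ccr2* (1.16, limma q = 0.0783) were not called.

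For neutrophils 1 of 2 genes tested was higher (*S100a8*, log2 3.29), or 2 of 2 without WT replicate 4. Another 6 were under the limit on low values, and the sums over the list were 11.1 to 134 in WT and 87.5 to 142 in rd6. *Ly6g*, which defines neutrophils, did not exceed 1.03 normalized counts. Lymphocyte markers had 9 of 10 genes under that limit and 0 called, with sums of 25.8 to 53.2 and 38.8 to 97.9. Without the limit, 3 lymphocyte and 3 neutrophil markers were called higher. Plasmacytoid dendritic cells, which also carry *Siglech*, gave 2 of 5 called higher (*Lair1*, log2 1.48, and *Cox6a2*, 1.14) and 0 lower, or 1 of 5 without WT replicate 1 or 6 or rd6 replicate 2, 5 or 6, with sums of 558 to 1337 and 1377 to 2493. Other cells of the eyecup were counted in the same way. Endothelial markers had 2 of 6 called higher (*Plvap*, log2 0.93, and *Cdh5*, 0.82) and 0 lower with sums of 4340 to 8315 and 7138 to 16583 normalized counts. Müller glia and astrocyte markers had 1 of 8 higher (*Dkk3*, 0.98) and 0 lower, with sums of 300470 to 369166 in WT and 341163 to 431275 in rd6, and melanocyte and stroma markers 0 of 9 higher and 1 lower (*Pdgfra*, -0.88), with sums of 19863 to 29169 and 16130 to 29113. Rod markers had 0 of 10 called higher and 2 lower (among them *Nrl*, log2 -1.10) by limma, but 0 lower by edgeR or in the blocked fit, with sums of 23266 to 57745 and 11412 to 54180. RPE markers had 0 of 10 called higher and 2 lower (*Lrat*, -0.98, and *Rgr*, -0.88), with sums of 1412090 to 2116290 and 1335080 to 1799740. With 1 library left out at a time, the count of rod markers called lower ran from 1 (without WT replicate 2, for example) to 7 (without rd6 replicate 5), and that of endothelial markers called higher from 1 (without rd6 replicate 1, for example) to 6 (without rd6 replicate 4). The call of *Pdgfra* was lost without rd6 replicate 4 and without rd6 replicate 5, and that of the lower monocyte marker without WT replicate 3 and without rd6 replicate 1 or 5. Without rd6 replicate 4, 5 or 6, 1 monocyte marker was called higher. The calls of *F13a1* and *Dkk3* were each lost in 10 of the 12 such fits. The median log2 fold change was 0.77 for the endothelial list (0.68 to 0.93), 0.56 for the plasmacytoid dendritic cell list and 2.52 for the 2 neutrophil genes. It was -0.24 for Müller glia and astrocyte, -0.23 for melanocyte and stroma, -0.96 for rod and -0.29 for RPE markers. The part of any of these cells in the change of the members was not tested.

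**Figure D4:**
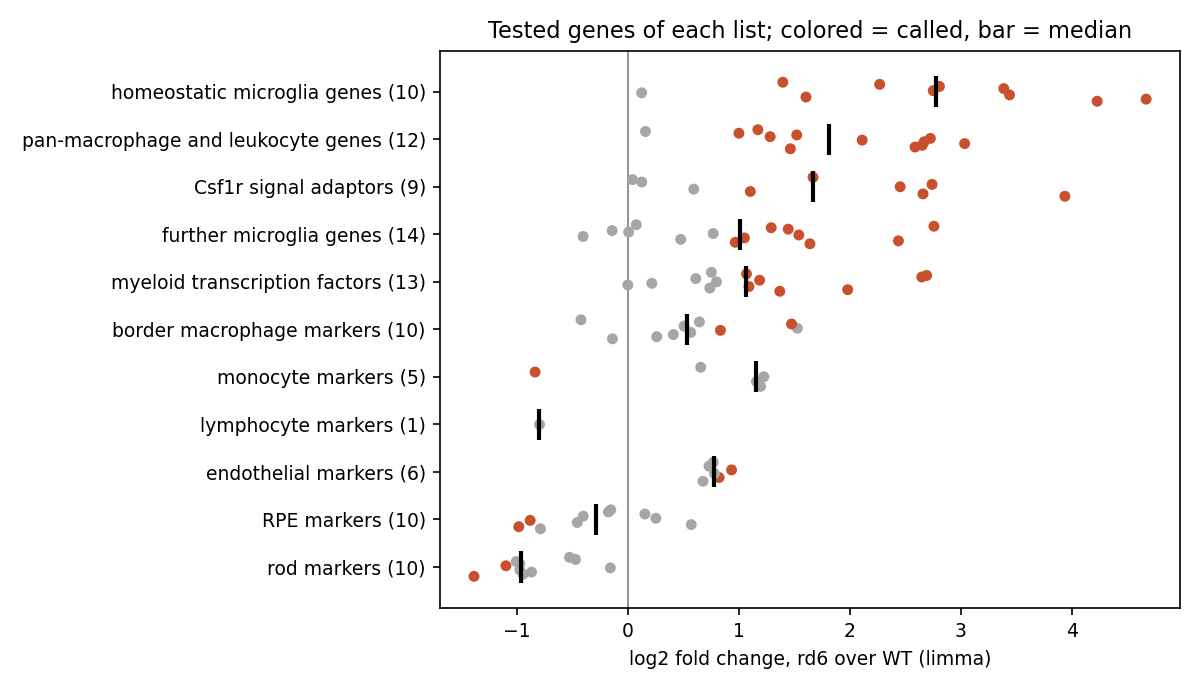
Log2 fold change from WT to rd6 of each tested gene in 11 lists (number tested in parentheses), with called genes in orange, others in gray and a black bar at the median of the list. The homeostatic microglia genes reach from 0.12 to 4.67, and the border macrophage, RPE and rod markers lie mostly between -1 and 1.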

How the data were processed

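The authors aligned the read pairs to mm10, counted them on genes with Rsubread with standard parameters, and divided the counts by DESeq2 size factors. This signal per gene and library was deposited, with the mean, fold changes and p-values of the authors' own comparison, which were not used. In each library 100% of the values were whole multiples of 1 read within 0.01 reads, so reads were recovered. The libraries held 28907262 to 33152725 reads on genes, and 3 reads are given as the floor.

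The table had 28596 entries, and 5 repeated ones were dropped. limma 3.58.1 (R 4.3.3, lmFit and eBayes with trend) was run on log2(value + 1) for the 17768 genes whose mean reached 10, and genotype was the sole term. Fold changes are on this scale and understate those of low genes. Alternatives were pseudocounts of 0.1 and 10, no filter, TMM rescaling, edgeR 4.0.16 and DESeq2 1.42.0 on the recovered reads, the replicate number as a block, each library left out, and other reference genes.

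All members are named. Of every other list the called genes with the largest change and defining markers near the floor are named, besides the neighbors of *P2ry12* and the 5 genes most like the members. Other genes (ligands, defining markers called or not, genes overlapping members, *Mfrp*) were added after their values were seen. Some genes that this selection takes in are not reported. The members and lists were chosen with earlier results of these data known. Coordinates and exon lengths are from GENCODE M21 (GRCm38). Overlapping genes are uncertain, as the standard parameters of Rsubread do not use the strand. The fit was tested on simulated data.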

Additional observations from a re-analysis of the deposited data

Results flagged for a closer look

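Each of the 10 genes was looked at in each genotype for a library that stood apart from the other 5 (Dixon's ratio of its gap to the whole range, with a critical value of 0.625 for 6 libraries). Of 20 groups 3 were past that value, where about 1 in 20 is the nominal share. Over all genes tested the rule was met more often than that share in WT. There WT replicate 4 alone stood apart in 10.8% of genes, and rd6 replicate 5 in 5.54% in rd6, against at most 1.76% for any other library. The 3 groups are thus not read as particular to the members. *Fcrls* in WT replicate 6 had a ratio of 0.94 at 263 normalized counts, and *Aif1* in the same library had 0.857 at 108. *Csf1r* was low in WT replicate 4, with a ratio of 0.738 at 12921 normalized counts, and this library also stood apart in 10.8% of all genes tested. Left out in turn, WT replicate 6 gave log2 fold changes of 3.18 for *Fcrls* and 3.15 for *Aif1*, and WT replicate 4 gave 0.04 for *Csf1r*.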

How the results depend on the processing

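Under all 20 alternatives to the comparison of rd6 with WT, each of the 10 members kept its direction and its side of the threshold, and 9 were called each time. The replicate block also gave 9 called members, with q from 0.000102 (*P2ry13*) to 0.00746 (*Sall1*) among them, and *Csf1r* at q = 0.498. Of 62 genes of the other lists called, 12 were not called with the block, at most 2 in a list. They include both rod markers. Among those named are *P2rx5* (q = 0.118), *Nrl* (0.117), *F13a1* (0.0943), *Cdh5* (0.0879), *Dkk3* (0.0863) and *Tgfb2* (0.0587). It changed no call of a member relative to a reference gene. Same-numbered WT and rd6 libraries did not deviate together (mean correlation -0.25, from -0.74 to 0.31 over 6 pairs). Such values cannot show whether samples were collected or processed in numbered pairs, and the labels do not say. The log2 fold change of *P2ry13* ran from 3.63 (pseudocount 10) to 4.85 (pseudocount 0.1), that of *Siglech* from 1.36 (pseudocount 10) to 2.47 (WT replicate 4 and rd6 replicate 5 both left out, chosen after seeing the data) and that of *Csf1r* from 0.04 to 0.17. The choice of reference gene moved the count of members called higher, from 9 against *Csf1r* to 6 against *Ptprc* and 2 against *Laptm5*, which follows from the rise of these references. Against *Ptprc*, the log2 difference of *Sall1* was -0.07 and ran from -0.29 to 0.049 with each library left out, turning to 0.049 without WT replicate 3 and without WT replicate 5. *Siglech* was called higher against *Ptprc* without WT replicate 4 (1.06, limma q = 0.0265) and lower against *Laptm5* without WT replicate 6 (-1.003, limma q = 0.0268). Depth limits *Siglech* and *P2ry13* most, with 2 to 12 and 4 to 11 reads in WT.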
